A study of Mus musculus with 15 samples.

Results

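The 8 genes described here encode subunits of the AMPA and kainate classes of ionotropic glutamate receptor. They are the AMPA receptor genes Gria1, Gria2, Gria3 and Gria4 and the kainate receptor genes Grik1, Grik2, Grik3 and Grik5, which were listed by name, with no threshold on their values, and make up 8 of the 27803 genes that had a row in at least 1 table. Their mRNA was counted by Drop-seq in 15 mice, in 3 groups of 5. Drop-seq captures each cell in a droplet with a barcoded bead, and each unique molecular identifier (UMI) read from it stands for 1 captured mRNA molecule. WT cerebella were taken at day 7 after birth (P7). Tumors were taken at P15 from M-Smo mice, a model of SHH medulloblastoma in which a Math1-Cre driver, active under the Atoh1 promoter in cerebellar granule neuron progenitors (CGNPs) and other cells of that lineage, removes a stop in front of SmoM2-EYFP, an always active form of SMO fused to a fluorescent protein. The mice were on the C57BL/6 background. From P12 to P14, M-Smo mice were injected daily with vismodegib, a SMO inhibitor, at 75 mg/kg (5 tumors, the vismodegib group), or with its solvent alone (5 tumors, the vehicle group), for 3 doses. Vehicle tumors therefore differed from WT cerebella in genotype, in age, in the solvent injections, and in the device that made the droplets (glass for tumors, PDMS for WT). Tumor cells, unlike WT cells, were also run with added human cells, after which barcodes were selected for mouse transcripts. These differences cannot be told apart in any comparison of vehicle with WT. Each mouse is a separate animal and is the replicate in every test.

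AMPA receptors are assemblies of the products of Gria1 to Gria4 and carry most fast excitatory transmission in the brain. Their permeability to calcium depends on whether the Gria2 product is present, since its transcripts are edited so that a glutamine codon in the pore is read as arginine. Kainate receptors are built from the products of Grik1, Grik2 and Grik3, which can form channels by themselves, together with high-affinity subunits such as that of Grik5, which cannot. In the cerebellum, Bergmann glia are known for AMPA receptors that lack the Gria2 product, Purkinje neurons for receptors that contain it, and granule neurons for kainate receptors of the Grik2 and Grik5 products. Cells of the oligodendrocyte lineage carry both classes.

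Because Gria2, Grik1 and Grik2 transcripts are edited at this codon, the genomic sequence around it is shown for each gene, 5′ to 3′ on the strand of the gene, with the codon in capitals (GENCODE M21 on GRCm38, mm10). In all 8 genes the genome encodes glutamine at this codon, CAA in Gria4 and CAG in the other 7.
Gria1: ggggccttcatgCAGcaaggatgtgacatt
Gria2: ggtgcctttatgCAGcaaggatgcgatatt
Gria3: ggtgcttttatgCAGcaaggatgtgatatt
Gria4: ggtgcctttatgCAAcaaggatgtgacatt
Grik1: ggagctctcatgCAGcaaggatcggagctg
Grik2: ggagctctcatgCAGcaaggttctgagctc
Grik3: ggctccctgatgCAGcaaggatctgaactg
Grik5: ggtggcttcatgCAGcagggctcggagatc
Over these 30 bases, Gria1, Gria3 and Gria4 differed from Gria2 at 4, 2 and 3 bases, and the kainate receptor genes differed from it at 8 to 10. The Gria2 codon is coding codon 607 of its transcript, in exon 11 of 16, at chr3:80706911-80706913 on the minus strand. The Grik2 codon is coding codon 621, in exon 12 of 16, at chr10:49244329-49244331, also on the minus strand. Drop-seq reads begin at the 3′ end of an mRNA, and the codon lies 1239 bases (Grik1) to 8102 bases (Gria2) before the annotated 3′ end in the transcripts used. The UMI counts therefore hold no measure of editing at this codon, nor of alternative exons near it.

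The genes are spread over 8 chromosomes. Gria2 spans chr3:80681450-80802835 and Gria3, the X-linked member, spans chrX:41400854-41678601. Gria1 spans chr11:57011387-57330244 and Gria4 spans chr9:4417896-4796234. Grik2 is the longest, with a span of 694 kb at chr10:49094833-49788766, and Grik5 the shortest, with 62 kb at chr7:25009849-25072346. Grik1 spans chr16:87895900-88290265 and Grik3 spans chr4:125490700-125714173. Small RNA genes on the same strand lie inside exons of Gria2 (Gm25749, 134 UMIs in all tables), Gria3 (Gm22413, not listed in the tables) and Gria4 (Gm23811, 13 UMIs). Gm26543, with 139 UMIs, lies in an intron of Grik2. Molecules of these genes and of the members cannot be told apart with certainty where they share a strand.

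Of 51841 barcodes in the 15 tables, 37946 cells were kept, 7224 from WT, 18293 from vehicle and 12429 from vismodegib. An animal gave 805 to 8103 cells and 1554478 to 16745299 UMIs, with a median of 1082.5 to 2597 UMIs per cell. No pair of the 105 pairs of tables shared more than 13 barcodes. SmoM2-EYFP transcripts were at 24.6 to 36.3 UMIs in 1000000 (CPM) in vehicle and at 17.0 to 33.1 CPM in vismodegib tumors. Only 3 such UMIs were listed for WT, in 2 animals. After removal of the group means, the first principal component of the tumors' summed CGNP-like counts held 38.6% of the variance and placed vehicle 1 and 3 and vismodegib 1 and 2 on the same side, so results were also computed with this set as a term. No label gives this set. It was derived from the same counts, so calls gained with it are not separate support. All 8 members had UMIs in all 15 animals, from 296 UMIs in all for Grik3 and 330 for Grik1 to 48967 for Gria2.

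Cells were clustered without use of the members or of the genes of their pathway lists, separately for WT and tumors, and clusters were named from marker genes. The cells of the granule neuron lineage (CGNP-like) were divided into 4 stages, Node A-like to Node D-like. Node A-like cells were led by mitotic genes in WT cluster 2 and tumor cluster 6. Tumor clusters 7 (2323 cells) and 9 (1674 cells), also named Node A-like, had 0 Node A markers among their leading genes. Cluster 7 was led by genes that include Ccne2 and E2f2. Node B-like progenitors had Atoh1 and Gli1, and Node C-like cells the early neuronal genes Cntn2 and Nhlh1. Node D-like neurons had Rbfox3 and Grin2b. These classes are rebuilt from markers, so a difference from the study's own nodes may come from the names. Levels are given in CPM, the UMIs of a gene in 1000000 UMIs of the class in the same animal, as mean ± SD over the 5 animals unless stated. The counting of 3′ ends carries no factor for gene length, so CPM values of different genes may be set side by side as molecules captured. Classes were defined on the same cells, so their order is a description without a test.

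Among the AMPA receptor genes, Gria2 was the most abundant member in all 4 stages in every group, and its level increased from progenitors to neurons. In vehicle tumors it was at 407 ± 74.4 CPM in Node B-like and at 1648 ± 55.8 CPM in Node D-like cells, with Node A-like at 433 and Node C-like at 1056 CPM. The order was similar in WT, where the levels were 246 ± 80.9 CPM in Node B-like, 243 in Node A-like, 482 in Node C-like cells and 845 ± 146 in the Node D-like class. Node A-like and Node B-like animals overlapped in all 3 groups, while in WT every animal was higher in Node D-like than any animal in Node C-like cells. The highest Gria2 level in WT was in Purkinje-like cells, the output neurons of the cerebellar cortex, at 1536 CPM, above every other class in every animal. The tumor cells had no Purkinje-like cluster.

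Gria1 had the narrowest distribution. In astrocyte-like cells, a class from which Bergmann glia were not separated, it was at 458 ± 158 CPM in WT, 507 ± 234 in vehicle and 629 ± 144 in vismodegib. Purkinje-like cells of WT, at 328 CPM, overlapped the WT astrocyte-like cells, and every other class was at 24.0 CPM or lower in WT, at 23.6 or lower in vehicle and at 21.5 or lower in vismodegib. Within the lineage, Gria1 was at 3.02 ± 0.700 CPM in vehicle, from 112 UMIs in 17204 cells. Gria4 was shared between glia and neurons. Its highest mean was in astrocyte-like cells in every group, at 337 ± 41.0 CPM in WT, 486 ± 252.2 in vehicle and 480 ± 70.9 in vismodegib. Node D-like cells were at 216, 236 and 234 CPM in the same order, and Node B-like cells were at 54.8, 51.0 and 35.5 CPM.

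Gria3 was ordered otherwise in WT than in vehicle tumors. In WT it was highest in GABAergic interneuron-like (127 CPM), Purkinje-like (125 CPM) and oligodendrocyte-lineage-like cells (114 CPM), which overlapped, with 66.4 ± 22.7 CPM in Node D-like and 8.68 ± 3.63 CPM in Node B-like cells. In vehicle tumors it was highest in oligodendrocyte-lineage-like cells, at 520 ± 91.8 CPM and above all other classes in every animal, and Node B-like cells (59.0 ± 8.18 CPM) overlapped Node D-like cells (43.0 ± 13.6 CPM). In vismodegib tumors oligodendrocyte-lineage-like cells were again first, at 168 ± 83.0 CPM, but overlapped the next class, and Node D-like cells (42.8 ± 17.4 CPM) had a higher mean than Node B-like cells (27.7 ± 6.69 CPM), with overlap. Vascular fibroblast-like cells of vehicle tumors had a mean of 168 CPM that rested on 21 UMIs and ranged from 32.2 to 377 CPM. The tumor cluster named neuron-like, which was led by the granule neuron genes Gabra6 and Cbln3, had no Gria3 UMI in 88 vehicle cells, which allows up to 25.1 CPM, and 2 UMIs in 214 vismodegib cells.

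Among the kainate receptor genes, Grik2 followed neuronal stage. It was at 222 ± 59.7 CPM in Node D-like cells of WT, 285 ± 96.9 in vehicle and 296 ± 65.0 in vismodegib, the highest mean of any class in each group. Node B-like cells were at 54.0, 41.4 and 21.5 CPM in the same order. Grik5 had a flatter distribution in WT, from 5.45 CPM in vascular fibroblast-like to 54.5 CPM in oligodendrocyte-lineage-like cells, with each class overlapping the next. In Node D-like cells of tumors it was at 144 ± 52.9 CPM (vehicle) and 151 ± 31.8 CPM (vismodegib). Neuron-like cells had the highest vehicle mean, 184 CPM from 15 UMIs, and were at 108 CPM in vismodegib. Grik1 was highest in Purkinje-like cells of WT, at 67.9 CPM from 38 UMIs, and in tumors in oligodendrocyte-lineage-like cells, at 52.1 ± 27.1 CPM in vehicle and 11.9 ± 13.7 CPM in vismodegib. Grik3 was at 39.4 to 58.4 CPM in oligodendrocyte-lineage-like cells of the 3 groups and at 42.4 CPM in GABAergic interneuron-like cells of WT, and no other class had a mean above 8.16 CPM.

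**Figure D1:**
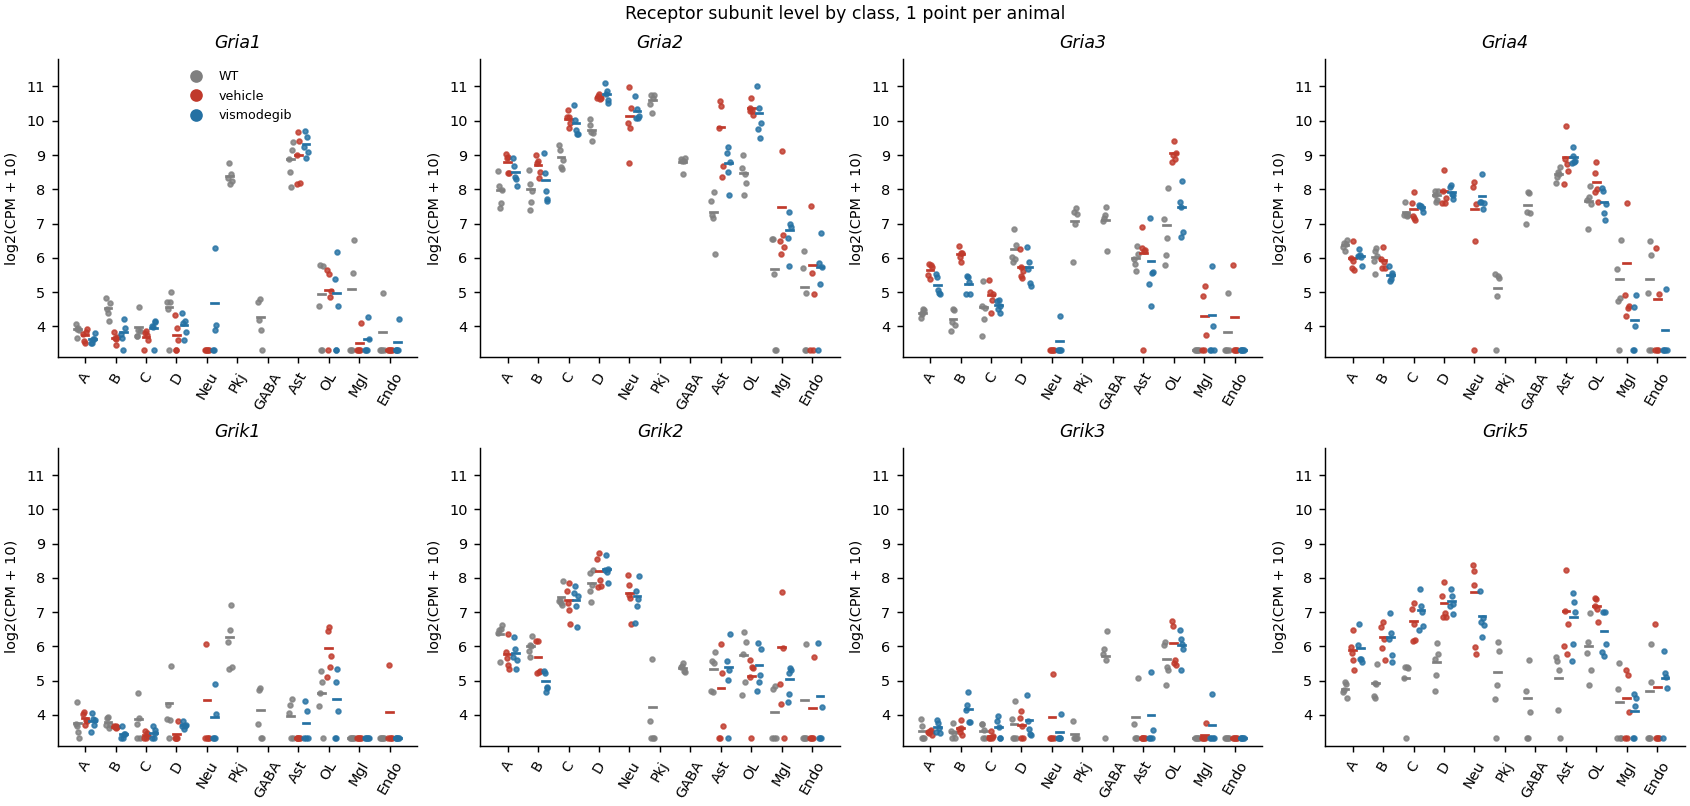
Level of each of the 8 members by cell class, as log2(CPM + 10), with 1 point per animal with at least 5 cells of the class and a bar at the mean of each group. Gria2, Gria4 and Grik2 increase from the Node A-like and Node B-like to the Node D-like stage in all 3 groups, Gria1 is concentrated in astrocyte-like cells and in Purkinje-like cells of WT, and Grik3 in oligodendrocyte-lineage-like cells and WT GABAergic interneuron-like cells.

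Cells that should lack these receptors show how much free RNA in the droplets could contribute. After each cell was thinned to 500 UMIs, Gria2 was found in 3.13% of microglia-like cells of WT, 6.03% of vehicle and 5.18% of vismodegib (median depths of 1682.5, 2107 and 2317.5 UMIs before thinning, shares of 7.29%, 16.1% and 19.8% unthinned). In endothelial-like cells the thinned shares were 0% of 60 cells in WT, which allows up to 5%, 1.79% in vehicle and 3.23% in vismodegib. Node D-like cells had Gria2 in 32.0%, 51.4% and 53.9% of thinned cells in the same order (median depths of 1118.5, 1109 and 1642 UMIs, 54.4%, 76.9% and 84.1% unthinned). Gria3 was found in 0%, 0.503% and 0% of thinned microglia-like cells, beside 0.381%, 2.92% and 0.861% of Node B-like and 6.12%, 22.7% and 8.44% of oligodendrocyte-lineage-like cells. At this depth the WT Node B-like share of Gria3 was not distinguishable from that in microglia-like cells, and neither are low values of any member in a class with few cells. Intervals and limits of this kind cover counting error only.

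The make-up of AMPA receptor mRNA differed between cell types. In Node D-like cells Gria2 gave 73.8% of the UMIs of the 4 Gria genes in WT and 85.5% in vehicle, while in astrocyte-like cells it gave 15.4% in WT and 43.8% in vehicle. For vismodegib against vehicle, 0 of 35 shares passed a 2-sided exact permutation test over animals after Benjamini-Hochberg adjustment. The lowest p there was 0.00794, the smallest that 5 against 5 animals can give, for the Gria3 share in CGNP-like cells, at 6.71% in vehicle and 2.82% in vismodegib (adjusted p = 0.278 over the 35 shares). For vehicle against WT, 21 of 35 shares passed, and 12 or 13 without vehicle 1, 2, 3 or 5. The shares of the 4 Gria genes in a class are parts of a whole, and CGNP-like cells pool the stages, so the 35 are not independent. Among the 21, the Gria2 share in CGNP-like cells was 73.7% in WT and 81.8% in vehicle, and the Gria4 share 20.5% and 11.04%. The kainate share of all member UMIs was 22.4% in WT and 15.6% in vehicle in Node A-like cells, and 18.7% and 11.3% in oligodendrocyte-lineage-like cells (adjusted p = 0.0347 for both, exact permutation test). It did not pass in CGNP-like cells (21.1% and 16.9%, adjusted p = 0.150, exact permutation test), at the other 3 stages or in astrocyte-like cells.

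**Figure D2:**
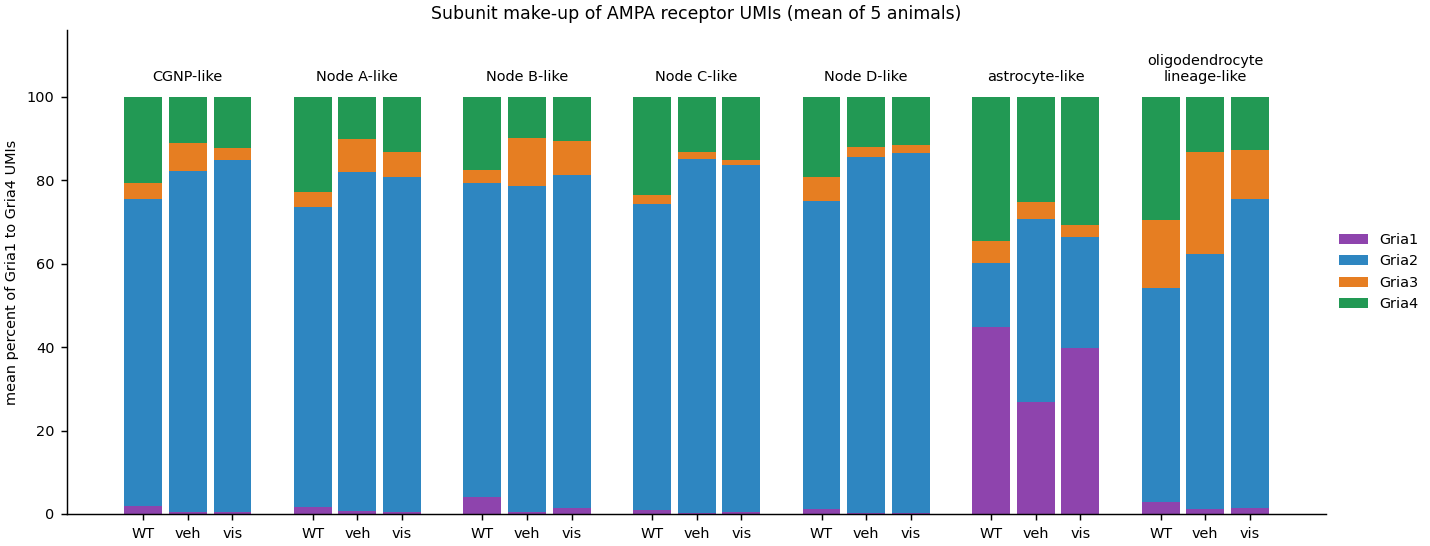
Mean percent of AMPA receptor UMIs given by Gria1, Gria2, Gria3 and Gria4 in each class, stacked to 100 on a linear axis, for WT, vehicle and vismodegib (5 animals each). Gria2 gives most of the UMIs at all 4 stages of the lineage, and astrocyte-like cells are the class in which Gria1 and Gria4 together give more than Gria2.

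The comparison of vismodegib with vehicle tumors asks how the receptor genes of tumor cells respond to SMO inhibition. In the granule neuron lineage as a whole, Gria2, Gria4 and Grik2 rose and Gria3 fell. When cells of the same stage were compared, the rises of the first 3 were not found, while Gria3 still fell in Node B-like cells. Gria3 also fell in oligodendrocyte-lineage-like cells. Counts were summed per animal and class and fitted with the quasi-likelihood method of edgeR. P values were adjusted over all genes by Benjamini-Hochberg, and genes with an adjusted p under 0.05 were called. Of the 8 members, 7 passed the filter on low counts in CGNP-like cells and 4 were called, beside 13.1% of all 12431 genes tested. Grik3, with 46 UMIs in vehicle and 66 in vismodegib, was not tested there.

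Gria2 was at 643, 638, 647, 518 and 462 CPM in CGNP-like cells of vehicle tumors 1 to 5, and at 995, 790, 728, 844 and 895 CPM in those of vismodegib tumors 1 to 5. The groups did not overlap, and the fitted log2 fold change was 0.56 (SE 0.13, edgeR adjusted p = 0.0137). Gria4 was at 78.2, 67.0, 119, 74.1 and 57.0 CPM in vehicle and at 115, 122, 110, 132 and 135 CPM in vismodegib. Vehicle 3 lay within the vismodegib range, the other vehicle tumors below it, and the log2 fold change was 0.65 (SE 0.18, adjusted p = 0.0283). Grik2 was at 91.1, 58.9, 113, 62.8 and 42.3 CPM in vehicle and at 112, 154, 108, 115 and 165 CPM in vismodegib. Vehicle 3 again overlapped the vismodegib tumors, and the log2 fold change was 0.85 (SE 0.23, adjusted p = 0.0271). The Gria4 call was lost when any 1 of vehicle 1, 2, 4 and 5 or vismodegib 4 and 5 was left out, and the Grik2 call without vehicle 2, 4 or 5 or vismodegib 2 or 5. Gria3 went the other way, from 58.0, 46.0, 41.2, 40.7 and 49.0 CPM in vehicle to 33.6, 31.2, 29.8, 23.8 and 22.1 CPM in vismodegib. All vismodegib tumors were below all vehicle tumors, and the log2 fold change was -0.75 (SE 0.16, adjusted p = 0.00588). Grik5 (log2 fold change 0.46, adjusted p = 0.258), Gria1 (0.54, adjusted p = 0.361) and Grik1 (-0.07, adjusted p = 0.929) did not pass the test.

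The stages of the lineage were present in different shares in the 2 groups. Node D-like cells were 8.07% of CGNP-like cells in vehicle tumors (5.39% to 12.05%) and 37.4% in vismodegib tumors (23.4% to 56.8%), and Node B-like cells 48.6% and 16.4%. In the stages taken separately, 5 members passed the filter and those called numbered 0 of 5 in Node A-like, 1 of 5 in Node B-like, and 0 of 5 both in Node C-like and Node D-like cells. The matching shares of all genes called by edgeR were 1.8%, 2.59%, 0.473% and 0.0581%. At an unadjusted p under 0.05, the members numbered 1, 3, 0 and 0. The 3 in Node B-like cells all had negative fold changes, the called Gria3, Grik2 (-0.93, SE 0.29, adjusted p = 0.123) and Gria4 (-0.50, SE 0.19, adjusted p = 0.232). With the tumor set as a term in the fit, Grik2 was called there (-0.87, edgeR adjusted p = 0.00508). That set was derived from the counts of these same tumors, so the call is not separate support. The largest cluster of each stage differed between the 2 groups. For Node A-like cells the largest was cluster 6 in vehicle (1742 of 4051 cells) and cluster 7 in vismodegib (1125 of 2437). Cluster 6 was led by mitotic genes that include Ccnb1 and Ube2c, and cluster 7 by genes that include Ccne2 and E2f2. For Node C-like cells the largest was cluster 5 in vehicle (1882 of 3251) and cluster 1 in vismodegib (1613 of 2371). In Node D-like cells, Gria2 had a log2 fold change of 0.12 (SE 0.14), Gria4 of 0.0049 (SE 0.19) and Grik2 of 0.09 (SE 0.21). Most Node D-like cells of vehicle tumors were in cluster 8 (704 of 1182), which was led by Car3 and Pcp4, and most of vismodegib tumors in cluster 4 (2464 of 4612), led by Calb2 and Pcp4. The difference of the treatment effect between Node D-like and Node A-like cells was tested by an exact permutation test on log2((CPM + 10) ratios), and 0 of 8 members passed. Gria2 was the 1 member with an unadjusted p under 0.05, with a difference of 0.39 on the log2 scale (p = 0.0476, adjusted p = 0.206, exact permutation test).

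**Figure D3:**
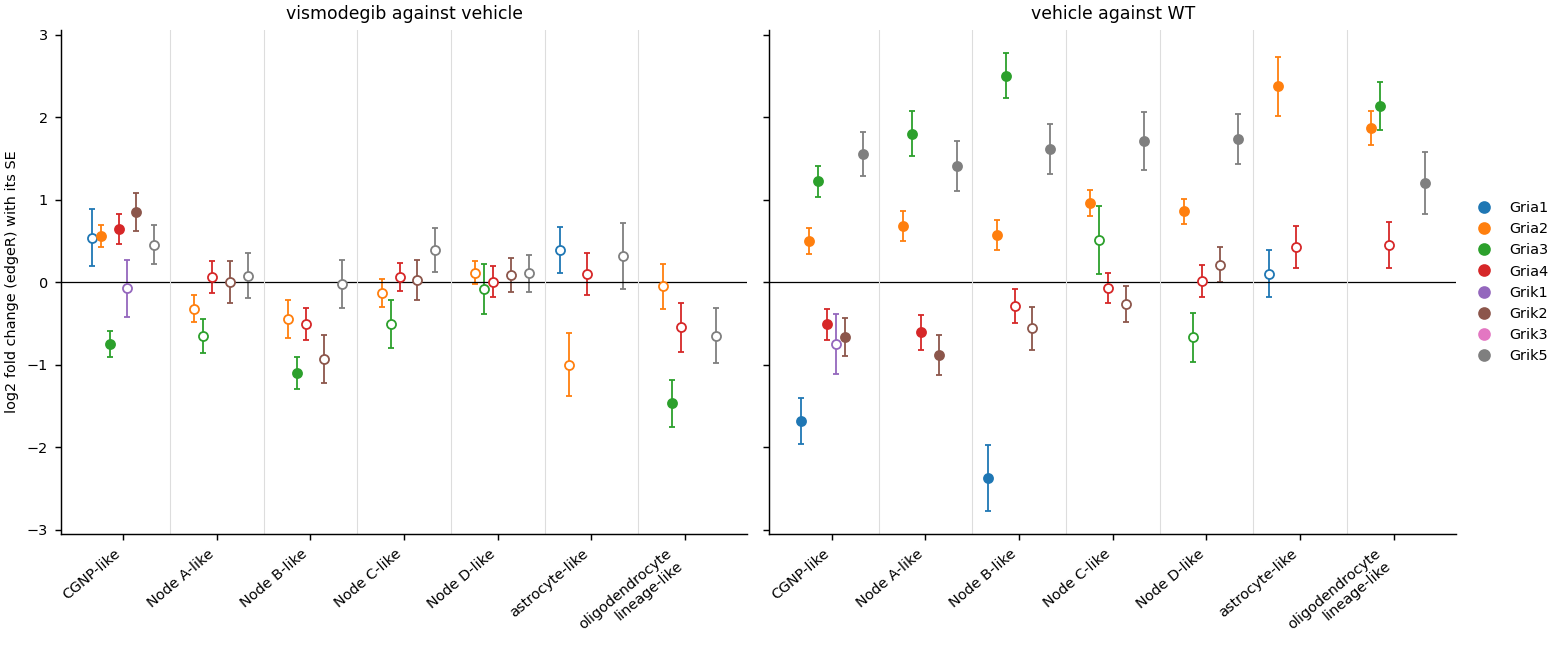
Log2 fold change of each member with its SE from the edgeR fits, for vismodegib against vehicle and for vehicle against WT, in CGNP-like cells, the 4 stages, astrocyte-like and oligodendrocyte-lineage-like cells, with filled symbols at an adjusted p under 0.05. For vismodegib against vehicle the filled symbols are Gria2, Gria3, Gria4 and Grik2 in CGNP-like cells, Gria3 in Node B-like cells and Gria3 in oligodendrocyte-lineage-like cells.

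Gria3 in Node B-like cells was at 70.7, 54.6, 60.7, 48.7 and 60.1 CPM in vehicle tumors 1 to 5 and at 21.03, 34.5, 33.6, 29.1 and 20.5 CPM in vismodegib tumors 1 to 5. The lowest vehicle tumor was above the highest vismodegib tumor. The log2 fold change was -1.10 (SE 0.19, adjusted p = 0.00536), or 2.14-fold lower, and the adjusted p stayed between 0.00722 and 0.0191 when single tumors were left out. The class joined 3 tumor clusters whose shares differed between the groups. Cluster 0 was the largest in vehicle (4294 of 8720 cells) and cluster 3 in vismodegib (660 of 1626 cells). Clusters 2 and 3 had no Node B marker among their 10 leading genes, and cluster 3 had 1 of oligodendrocyte progenitors, C1ql1, so the clusters were also compared by number. In cluster 0, led by genes that include Hes1, Atoh1 and Myc, Gria3 was at 65.6 ± 11.5 CPM in vehicle and 29.7 ± 16.5 CPM in vismodegib (log2 fold change -1.24, SE 0.29, adjusted p = 0.0225, beside 2.9% of all genes called in this cluster). In cluster 2, led by S-phase genes, it was at 53.3 ± 6.46 and 32.9 ± 9.67 CPM, which did not pass (log2 fold change -0.71, SE 0.26, adjusted p = 0.340, with 0.88% of all genes called). In cluster 3 it was at 43.6 ± 16.0 and 15.8 ± 5.85 CPM, from 106 and 13 UMIs, too few for the filter (1.27% of all genes tested there were called). Without cluster 3 the fall in Node B-like cells was -0.98 (SE 0.21, adjusted p = 0.0174), and 2.38% of all genes were called. In Node A-like cells, Gria3 was at 35.6, 46.6, 31.8, 45.04 and 42.7 CPM in vehicle and 36.2, 33.5, 23.4, 21.6 and 20.8 CPM in vismodegib, with overlap, and a log2 fold change of -0.65 (SE 0.20, adjusted p = 0.164).

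Markers moved with this result. The summed level of the 12 Node B markers in Node B-like cells had a median of 5305 CPM in vehicle (5216 to 5975) and 4383 CPM in vismodegib (3817 to 4741), and all 12 were detected in both. Of the listed markers of oligodendrocyte progenitors, a cell type with high Gria3, 5 summed to a median of 328 CPM in vehicle (289 to 399) and 439 CPM in vismodegib (327 to 461), with Matn4 at 0 in vismodegib. C1ql1, a marker of that list, was also among the leading genes of tumor cluster 3, so in Node B-like cells the sum is not specific to progenitors. The part of these changes in the level of Gria3 was not tested.

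In whole tumors, with all kept cells summed, 3 of 8 members were called, beside 13.9% of 13190 genes. Such sums mix levels with the shares of cell types, and fewer cells of a type and less RNA per cell cannot be told apart in them. Gria1, the astrocyte-associated member, was at 5.97, 7.38, 6.19, 16.9 and 10.03 CPM in vehicle and at 30.8, 23.3, 15.1, 45.2 and 38.5 CPM in vismodegib. Vismodegib 3 lay below vehicle 4, and the log2 fold change was 1.69 (SE 0.35, adjusted p = 0.00702). Astrocyte-like cells numbered 202 of the 18293 vehicle cells and 468 of the 12429 vismodegib cells, and Gria1 within them did not pass the test. Gria3 fell (-0.94, SE 0.14, adjusted p = 0.00127) and Gria4 rose (0.58, SE 0.17, adjusted p = 0.0385), but the Gria4 call was lost when any tumor other than vehicle 3 and vismodegib 3 was left out. Gria2 (0.41, adjusted p = 0.0606) and Grik2 (0.72, adjusted p = 0.0598) lay just outside the threshold. The count of 3 became 5 without vehicle 3, with the tumor set as a term and with DESeq2, and 2 where the Gria4 call was lost.

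The levels of each tumor were also weighted by the mean class shares of the vehicle group, which sets the mixture of classes equal. Gria3 was then at 57.7 ± 4.49 CPM in vehicle and 29.6 ± 4.68 CPM in vismodegib (exact permutation p = 0.00794, adjusted p = 0.0635 over 8 members, the smallest adjusted p that a single member at that p can have). Gria2 was at 593 ± 84.0 and 505 ± 152 CPM, Gria4 at 87.8 ± 24.5 and 79.5 ± 5.93 CPM, and Grik2 at 70.0 ± 24.7 and 62.1 ± 15.2 CPM. The means of these 3 members were thus lower in vismodegib at equal class shares and higher as measured. For Gria1 the weighted levels were 9.39 ± 2.29 and 11.82 ± 3.59 CPM. By this test 0 of 8 members passed, and at an unadjusted p under 0.05 Gria3, Grik3 (p = 0.0317, exact permutation test) and Grik1 (p = 0.0397, exact permutation test) did.

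**Figure D4:**
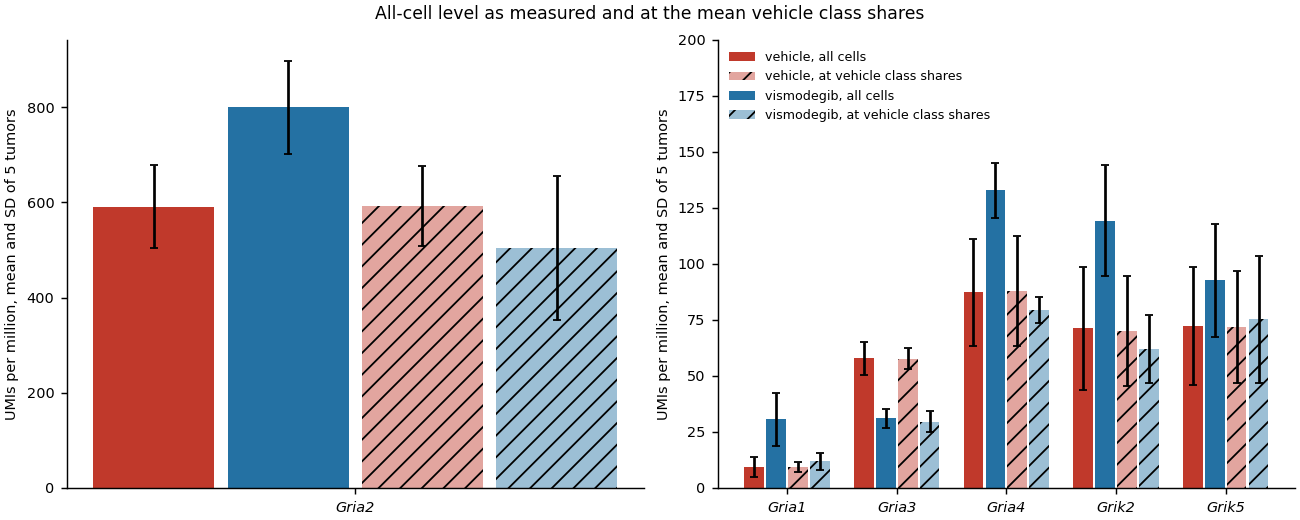
Level in all cells of vehicle and vismodegib tumors, in CPM on a linear axis, as measured and with every tumor weighted to the mean vehicle class shares, with Gria2 on its own axis at left and Gria1, Gria3, Gria4, Grik2 and Grik5 at right. Each group has 5 tumors. The mean of Gria3 is lower in vismodegib both ways, while Gria2, Gria4 and Grik2 have higher means in vismodegib as measured and lower means at equal class shares.

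In oligodendrocyte-lineage-like cells, which myelinate axons or are the progenitors of cells that do, 4 members passed the filter and 1 was called, beside 5.15% of 2739 genes. Gria3 was at 436, 503, 672, 464 and 526 CPM in vehicle tumors 1 to 5 and at 189, 88.2, 170, 294 and 97.1 CPM in vismodegib tumors 1 to 5. The groups did not overlap. The log2 fold change was -1.47 (SE 0.28, adjusted p = 0.00317), or 2.77-fold lower. Gria2 (-0.05, SE 0.27, adjusted p = 0.983), Gria4 (-0.54, SE 0.30, adjusted p = 0.368) and Grik5 (-0.65, SE 0.33, adjusted p = 0.334) did not pass. The marker genes of the class moved as well. Of the listed progenitor markers, 5 summed to a median of 3308 CPM in vehicle (2943 to 4346) and 1191 CPM in vismodegib (1032 to 1678), and the 9 markers of maturing oligodendrocytes to 12860 CPM (5294 to 27340) and 65260 CPM (27220 to 89330). All of these markers were detected in both groups. In subcluster 0, led by genes that include the progenitor markers Pdgfra and Cspg4, Gria3 was at 656 ± 104 CPM in 5 vehicle tumors and 357 ± 168 CPM in 4 vismodegib tumors (log2 fold change -0.87, SE 0.31, adjusted p = 0.320). In subcluster 1, led by genes that include Bmp4 and Enpp6, it was at 366 ± 49.7 and 127 ± 124 CPM in 4 tumors each (-1.32, SE 0.48, adjusted p = 0.468). The lower level was seen in both of these subclusters and did not pass the test in either. Of all genes, 0.57% (subcluster 0) and 0.0845% (subcluster 1) were called. Subclusters 2 (41 cells) and 3 (24 cells) were not tested. Progenitor-like cells were 307 of the 419 cells of the class in vehicle and 62 of 154 in vismodegib. Gria3 in the whole class rested on 107 UMIs in vismodegib.

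**Figure D5:**
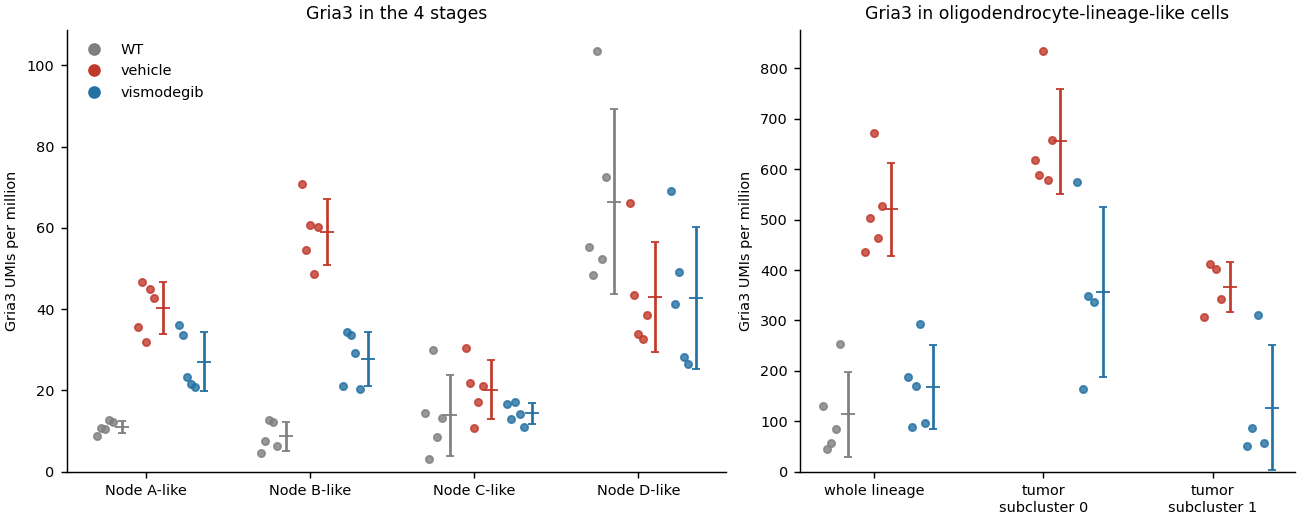
Gria3 in CPM for each animal (points) with the mean and SD of each group, by stage of the granule neuron lineage, in oligodendrocyte-lineage-like cells and in tumor subclusters 0 and 1 of that class. Vehicle tumors lie above WT in Node A-like and Node B-like cells and in oligodendrocyte-lineage-like cells, and vismodegib tumors lie below vehicle tumors in Node B-like and oligodendrocyte-lineage-like cells.

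In astrocyte-like cells 4 members passed the filter and 0 were called by edgeR, beside 1.04% of 2028 genes, and 1 had an unadjusted p under 0.05. That was Gria2, at 882, 1530, 1380, 317 and 398 CPM in vehicle and 523, 598, 354, 217 and 437 CPM in vismodegib, with a log2 fold change of -0.997 (SE 0.39, adjusted p = 0.279). Vehicle 4 and 5 lay within the vismodegib range. Gria1 (0.39, SE 0.28, adjusted p = 0.640), Gria4 (0.10, SE 0.26, adjusted p = 0.940) and Grik5 (0.32, SE 0.40, adjusted p = 0.841) also did not pass. Vehicle 3 gave 6 astrocyte-like cells. In the neuron-like tumor cluster, Gria2 alone could be tested, at a log2 fold change of 0.04 (SE 0.25, adjusted p = 0.995).

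The comparison of vehicle tumors with WT cerebella asks how the receptor genes of tumor cells differ from those of the normal lineage. It shares the 5 vehicle tumors with the comparison above. Stage shares differed here too, with Node D-like cells at 23.0% of CGNP-like cells in WT and 8.07% in vehicle, and Node B-like cells at 37.0% and 48.6%, so the lineage-wide values mix levels with these shares. In CGNP-like cells Gria3, Grik5 and Gria2 were higher in tumors and Gria1, Gria4 and Grik2 lower. Between stages of the same name, Gria2 and Grik5 were higher at all 4 stages, and Gria3 at the Node A-like and Node B-like stages. The Node A-like stage differed in make-up. Mitotic cluster 2 held 751 of 751 such cells in WT, and mitotic tumor cluster 6 held 1742 of 4051 in vehicle. The part of this difference in the Node A-like levels was not tested. In CGNP-like cells 6 of 7 members tested were called, beside 44.7% of 12582 genes. At the stages, the counts were 5 of 5 in Node A-like, 4 of 6 in Node B-like, 2 of 5 in Node C-like and 2 of 5 in Node D-like cells, beside 31.8%, 37.1%, 29.6% and 27.8% of all genes.

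Gria3 in Node B-like cells was at 4.54, 7.63, 12.7, 12.2 and 6.30 CPM in WT 1 to 5, from 26 UMIs in 1836 cells, and at 48.7 to 70.7 CPM in vehicle tumors. The log2 fold change was 2.51 (SE 0.27, adjusted p = 2.16e-06), and without tumor cluster 3 it was 2.54. WT microglia-like cells had 0 UMIs of Gria3, which allows up to 14.9 CPM, so at this depth the WT level was not distinguishable from background and the size of the fold is uncertain. In Node C-like cells Gria3 did not pass (0.51, SE 0.42, adjusted p = 0.379). In Node A-like cells Gria3 was at 8.76, 10.9, 10.6, 12.7 and 12.3 CPM in WT, below every vehicle tumor (log2 fold change 1.80, SE 0.28). These WT values, from 33 UMIs, also lie under 14.9 CPM, so the size of this fold is uncertain too. In Node D-like cells it was at 55.2, 48.5, 104, 52.3 and 72.5 CPM in WT and at 66.2, 43.5, 33.9, 32.8 and 38.6 CPM in vehicle. The groups overlapped, and the log2 fold change was -0.67 (SE 0.30, adjusted p = 0.0971). WT Node D-like cells came from cluster 4 (670 cells, 32.0 CPM of Gria3) and cluster 7 (486 cells, 102 CPM), and the leading genes of cluster 7 include Calb2 and Eomes, a gene of unipolar brush cells, which were not separated from granule neurons.

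The change of slope along the lineage was tested by itself, in a test chosen after the data were seen. The log2 ratio of (CPM + 10) in Node D-like to Node B-like cells of the same animal was 2.01 ± 0.38 in WT and -0.41 ± 0.23 in vehicle for Gria3, a difference of -2.42 (adjusted p = 0.0317 over 8 members, exact permutation test). For Grik2 it was 1.83 ± 0.29 in WT and 2.53 ± 0.12 in vehicle, a difference of 0.69 (adjusted p = 0.0317, exact permutation test). In both cases the WT and vehicle ranges did not overlap. Without any 1 vehicle tumor the adjusted p was 0.0635 for each (exact permutation test), so neither passed. The Gria3 ratio in WT rests on the low Node B-like level given above. With hemoglobin genes kept in the clustering, the adjusted p was 0.0635 for Gria3 and 0.0952 for Grik2. The other 6 members did not pass.

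Grik5 in Node D-like cells was at 39.1, 16.2, 25.9, 59.2 and 44.6 CPM in WT and at 168, 105, 226, 115 and 105 CPM in vehicle. Every vehicle tumor was above every WT cerebellum, and the log2 fold change was 1.74 (SE 0.31). At the other stages it was 1.41 (Node A-like), 1.62 (Node B-like) and 1.71 (Node C-like). Gria2 in Node D-like cells was at 1049, 922, 803, 664 and 786 CPM in WT and at 1618, 1665, 1736, 1592 and 1629 CPM in vehicle, again without overlap (0.86, SE 0.15). Its log2 fold changes were 0.68, 0.57 and 0.96 in Node A-like, Node B-like and Node C-like cells. Gria1 was lower in vehicle in Node B-like cells (-2.37, SE 0.40), where its levels of 13.1 ± 4.06 CPM in WT and 2.63 ± 1.23 CPM in vehicle rested on 35 and 50 UMIs and lie within the range of the microglia-like cells. In CGNP-like cells it was at 9.14 ± 1.31 and 3.02 ± 0.700 CPM (-1.68, SE 0.28). Gria4 and Grik2 were lower in CGNP-like cells (-0.51, adjusted p = 0.0353, and -0.66, adjusted p = 0.0288) and in Node A-like cells (-0.60 and -0.88), but neither was called in Node B-like cells (-0.29, adjusted p = 0.292, and -0.56, adjusted p = 0.104) or at the Node C-like and Node D-like stages. Grik1 in CGNP-like cells did not pass (-0.75, SE 0.36, adjusted p = 0.103). The Gria2 call in CGNP-like cells was lost without WT 4 (adjusted p = 0.0535), and that in Node B-like cells without WT 3 or WT 4. The Gria4 calls in CGNP-like cells and at the Node A-like stage were lost when any 1 of WT 2, 4 and 5 or vehicle 1, 2, 4 and 5 was left out (adjusted p up to 0.115 and 0.110). The Grik2 call in CGNP-like cells was lost without any 1 of WT 2, 4 and 5 or vehicle 2, 4 and 5 (adjusted p up to 0.0824).

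In glia, Gria2 was higher in vehicle tumors than in WT. The mean was also higher in microglia-like cells, used above as cells that should lack these receptors. There it was 40.6 CPM in WT and 170 CPM in vehicle, from 10 and 46 UMIs. In endothelial-like cells it was 25.4 and 45.8 CPM, from 5 and 7 UMIs. The part of free RNA in the Gria2 levels of the other glia was not tested. In astrocyte-like cells 1 of 3 members tested was called, beside 25.1% of 2270 genes. Gria2 was at 191, 141, 133, 232 and 59.6 CPM in WT, below all 5 vehicle tumors listed above, with a log2 fold change of 2.38 (SE 0.36, adjusted p = 4.33e-06). Gria1 (0.11, SE 0.28, adjusted p = 0.820) and Gria4 (0.43, SE 0.25, adjusted p = 0.226) did not pass. Markers of tumor progenitors moved with Gria2 in these cells. The 12 Node B markers, all detected, summed to a median of 379 CPM in WT (344 to 691) and 882 CPM in vehicle (625 to 1433), while the 10 Node D markers summed to 1282 CPM in WT (969 to 1455) and 1035 CPM in vehicle (528 to 1304), with Vsnl1 and Gabra6 at 0 in vehicle. The 6 Bergmann glia markers summed to 1155 CPM in WT and 647 CPM in vehicle, with Npy2r at 0 in both. The part of these differences in the level of Gria2 was not tested.

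In oligodendrocyte-lineage-like cells 3 of 4 members tested were called, beside 26.7% of 2425 genes, and each was higher in vehicle. Gria2 was at 385, 498, 220, 340 and 283 CPM in WT and at 1308, 1248, 1597, 1233 and 1146 CPM in vehicle (log2 fold change 1.87, SE 0.21). Gria3 was at 130, 45.3, 57.4, 85.03 and 253 CPM in WT, below the vehicle values of 436 to 672 CPM (2.14, SE 0.29). Neither gene overlapped between groups. Grik5 was at 54.5 ± 38.3 CPM in WT and 135 ± 26.4 CPM in vehicle (1.204, SE 0.37, adjusted p = 0.0184), and this call was lost without WT 1 or without WT 3. The progenitor markers of the class summed to a median of 1981 CPM in WT (1080 to 2310), beside 3308 CPM in vehicle.

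Receptor subunits work with partners that traffic, anchor or modify them, and 51 such genes in 5 lists were read from the same fits. For vismodegib against vehicle in CGNP-like cells, 42 of the 51 were tested, 13 were higher and 5 lower, beside 13.1% of all genes called either way. The median log2 fold change was 0.31, beside 0.0029 for all genes. Of 18 trafficking and scaffold genes, 8 were higher and 1 lower, and of 11 AMPA receptor auxiliary subunits 2 were higher and 3 lower. The largest rises were of Nptxr, the neuronal pentraxin receptor (19.7 ± 6.56 to 61.0 ± 18.5 CPM, log2 fold change 1.67), Cnih2, an auxiliary subunit that slows AMPA receptor gating (18.9 ± 5.21 to 58.3 ± 14.2 CPM, 1.65), and Dlg2, a postsynaptic scaffold (9.78 ± 2.00 to 25.9 ± 6.21 CPM, 1.43). The falls were led by Gsg1l, an auxiliary subunit that dampens AMPA receptor currents (188 ± 53.0 to 73.1 ± 26.6 CPM, -1.37), and the glutamate transporter gene Slc1a3 (89.1 ± 35.1 to 43.6 ± 6.51 CPM, -1.01). At the stages, 1 was higher and 4 lower of 35 in Node A-like cells (1.8% of all genes called), 1 and 5 of 37 in Node B-like cells (2.59%) and 0 and 1 of 29 in Node C-like cells (0.473%). Node D-like cells gave 0 of 28 by edgeR (0.0581%). In glia, 0 of 9 were called in astrocyte-like cells (1.04%), and 1 was higher and 1 lower of 10 in oligodendrocyte-lineage-like cells (5.15%).

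Of the 3 editing genes, 1 was higher in vismodegib in CGNP-like cells. It was Adarb1, whose product edits the Gria2 codon printed above, at 25.7 ± 6.31 CPM in vehicle and 60.7 ± 7.40 CPM in vismodegib. Like Gria2 it increased with stage, from 14.1 ± 2.16 CPM in Node B-like to 105 ± 28.9 CPM in Node D-like cells of vehicle tumors, and it was not called in Node D-like cells, at 127 ± 17.5 CPM in vismodegib. Adarb1 was chosen for its role at this codon after its values were seen.

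For vehicle against WT in CGNP-like cells, 15 list genes were higher and 16 lower of 45 tested, beside 44.7% of all genes called either way. At the stages the counts were 10 higher and 4 lower of 31 in Node A-like cells (31.8% of all genes called), 12 and 6 of 34 in Node B-like cells (37.1%), 9 and 7 of 27 in Node C-like cells (29.6%) and 5 and 5 of 24 in Node D-like cells (27.8%). In oligodendrocyte-lineage-like cells they were 4 and 1 of 9 (26.7%). Cacng5, an auxiliary subunit of AMPA receptors, was at 2.77 ± 1.33 CPM in WT and 28.0 ± 15.9 CPM in vehicle (log2 fold change 3.23), Gsg1l at 36.7 ± 8.77 and 188 ± 53.0 CPM (2.26), and the glutamate transporter gene Slc1a2 at 67.1 ± 11.3 and 240 ± 70.9 CPM (1.73). Dlg2 (-1.49), Cnih2 (-1.24) and Nptxr (-1.21) were lower in vehicle. In astrocyte-like cells 4 of 9 were higher and 0 lower by edgeR, beside 25.1% of all genes called. Among the 4 were Glul, the glutamine synthetase of astrocytes (407 ± 50.9 to 2128 ± 828 CPM, 2.41), Frrs1l, which acts in AMPA receptor assembly (43.8 ± 23.6 to 197 ± 85.6 CPM, 2.15), and Slc1a2 (560 ± 59.8 to 1057 ± 322 CPM, 0.97).

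The genes most like each member over the means of classes and groups were found among 8368 genes by Pearson's r of log2(mean CPM + 10). The 34 means share animals and libraries, so r is a description. Gria1 was most like Id4 (0.913), followed by Shisa9 and Clu, and Gria2 most like Atp6v0e2 (0.920), followed by Rtn1 and Dock3. For Gria3 the list was Sh3gl3 (0.779), Sox8 and Shc4, and for Gria4 it was Gm3764 (0.905), Syt11 and Ctnnd2. Grik2 was most like Reln (0.913), followed by Neurod1 and Rbfox3, and Grik5 most like Kif1b (0.866), followed by Atp9a and Tfcp2. The low-count members Grik1 and Grik3 were most like Car8 (0.769) and Gpr17 (0.846). Rtn1, Neurod1, Rbfox3, Clu, Car8, Gpr17 and Sox10, which follows Gpr17 and Nkx2-2 in the list of Grik3, are also markers by which classes were named. Among the members themselves, Gria2 and Gria4 were the most alike (0.754) and Gria1 and Grik2 the least (-0.185).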

How the data were processed

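Drop-seq counts of 15 mice (5 WT, 5 vehicle, 5 vismodegib) were analysed. The deposited values are raw UMI counts per gene and barcode, not normalized. Per the labels and the methods of the study, the authors made them with Drop-seq Tools and STAR on an mm10 reference that also held Cre and SmoM2-EYFP. Tumor cells were mixed with human HEK 293 cells and mouse barcodes were kept. The submitters' processing notes also name Seurat 2.3.0 and bcl2fastq 2.18, and no source used here gives the annotation version or the use of strand in counting.

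Cells with at least 500 UMIs and 500 genes were kept, up to 5 SD above the animal's median for UMIs, genes and the mitochondrial share. No doublet caller was run beyond these upper limits. WT (7224 cells) and tumor cells (30722 cells) were clustered separately, on 1489 and 1264 variable genes and 12 and 8 principal components, with Louvain clustering (resolution 0.8, Python 3.11.15, igraph 0.11.9). Members, list genes and hemoglobin genes were held out. Counts were summed per animal and class with at least 5 cells and tested with edgeR 4.0.16 in R 4.3.3 (TMM, filterByExpr, quasi-likelihood test). Other values of 5 against 5 animals were compared by 2-sided exact permutation tests, for which the smallest p is 0.00794. Shares of AMPA receptor UMIs were computed where each animal had at least 20.

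The fits were checked on simulated counts. With 100 genes changed by 1 log2 unit among 12431 in CGNP-like cells (vismodegib against vehicle), 52% were recovered, and 80% at 1.5 log2 units. Alternatives were DESeq2 1.42.0, no filter, a replicate block, a term for the 2 sets of tumors, a limit of 4 SD, a resolution of 1.2, thinning to 500 UMIs and leaving out each animal. The replicate numbers in the labels name different animals. Deviations of same-numbered vehicle and vismodegib tumors correlated at -0.178 to 0.394, which is too few values to show or exclude pairing by number. Per the methods of the study, the injected M-Smo mice were littermates. The labels used here do not give the litter, so no fit has a term for it. The members and lists were chosen with earlier results of these data known. The 8 members were named as a list, whatever their values. List genes are named by the 3 largest rises and falls called in CGNP-like or astrocyte-like cells, provided the mean log2 CPM reached 4. For likeness the 3 genes with the highest r are named.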

Additional observations from a re-analysis of the deposited data

Results flagged for a closer look

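In 8 of 128 groups of 4 or 5 animals with at least 50 UMIs of the member, the highest or lowest animal stood apart from the others by Dixon's test at the 95% level, which chance alone gives in about 1 of 20 groups. In astrocyte-like cells, Gria3 of vismodegib 2 was at 132.8 CPM, beside 14.2 to 37.7 CPM in the other 4 vismodegib tumors, and Gria4 of vehicle 3 at 920.2 CPM from 6 cells, beside 276 to 460 CPM. In Node D-like cells, Gria4 of vehicle 3 was at 369.1 CPM, beside 183 to 236 CPM. In Node C-like cells of WT, Gria4 of WT 2 was at 187.5 CPM (others 140 to 145), Grik2 of WT 5 at 230.8 CPM (others 138 to 152) and Grik5 of WT 3 at 0.0 CPM (others 24.0 to 32.3). In Node A-like cells, Grik2 of WT 3 was at 37.07 CPM (others 74.2 to 88.8), and in all cells Grik1 of vehicle 2 at 4.697 CPM (others 3.44 to 3.76).

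For 2 members the difference between vehicle and WT was itself different between stages, by an exact permutation test of the log2 ratio of Node D-like to Node B-like levels. The ratio was lower in vehicle than in WT by 2.42 for Gria3 (difference -2.415), and higher by 0.695 for Grik2. Without any 1 vehicle tumor the adjusted p was 0.0635 for each (exact permutation test), so both calls were lost. Both were also lost with hemoglobin genes kept in the clustering. The test was chosen after the data were seen. These values carry the limits given above for vehicle against WT.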

How the results depend on the processing

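No member that was called in a comparison changed sign under an alternative. Members that were not called did, with ranges over single animals left out of -0.34 to 0.13 for Gria2 in oligodendrocyte-lineage-like cells, -0.26 to 0.09 for Gria3 in Node D-like cells and -0.19 to 0.33 for Grik5 in Node A-like cells (vismodegib against vehicle), and -0.09 to 0.36 for Gria1 in astrocyte-like cells (vehicle against WT), among others. The number of members called for vismodegib against vehicle in all cells was 3 and became 5 with the tumor set as a term, with DESeq2, and with the tumor set after vismodegib 3, the tumor nearest to 0 on the component, was moved to the other set (added after the data were seen). The member-by-stage calls for that comparison were 1 and became 2 with no filter, with the tumor set in either form and with hemoglobin genes kept in the clustering (also added later). The gained call was Grik2 in Node B-like cells (-0.87, adjusted p = 0.00508 with the set), or Gria3 in Node A-like cells with hemoglobin genes (-0.73, adjusted p = 0.0388). For vehicle against WT, astrocyte-like calls went from 1 to 2 with no filter, and calls of the Node D-like to Node B-like difference from 2 to 0 with hemoglobin genes kept. The edgeR calls of Gria4 (adjusted p = 0.183) and Grik2 (adjusted p = 0.0510) in CGNP-like cells were lost with no filter. The Gria4 call in Node A-like cells was lost with no filter (edgeR adjusted p = 0.183) and at a resolution of 1.2 (adjusted p = 0.0873). With no filter the median log2 fold change of all genes moved by up to 0.21, in astrocyte-like cells for vismodegib against vehicle. With the replicate block, which pairs by number alone, the shares called for vehicle against WT went from 21 to 0 and the stage difference from 2 to 0, since 5 pairs allow no p below 0.0625. By edgeR the block left 4 calls in CGNP-like cells, 3 in all cells and 1 each at the stages and in oligodendrocyte-lineage-like cells for vismodegib against vehicle, and it ended the Gria4 call for vehicle against WT (-0.55, adjusted p = 0.0558). Own-number correlation was highest in 2 of 5 vehicle and vismodegib pairs and 0 of 5 WT and vehicle pairs.

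Leaving out single animals gave 2 to 4 member calls in CGNP-like cells for vismodegib against vehicle (2 without vehicle 2, vehicle 4, vehicle 5 or vismodegib 5) and 2 to 5 in all cells (5 without vehicle 3). For vehicle against WT the range was 3 to 6 in CGNP-like cells (3 without WT 4, and 4 without WT 2, WT 5, vehicle 2, vehicle 4 or vehicle 5). It was 2 to 3 in oligodendrocyte-lineage-like cells (2 without WT 1 or WT 3) and 11 to 13 over the stages. Shares called ranged from 12 to 21 (12 or 13 without vehicle 1, 2, 3 or 5), and stage differences from 0 to 2 (0 without any 1 vehicle tumor). The Gria2 call in Node B-like cells was lost without WT 3 or WT 4. The levels at equal class shares gave 0 to 2 calls (2 without vismodegib 2 or vismodegib 5), and the list genes 15 to 18 of 18. Of 256 class levels, 26 or 27 moved by over 1 SD under each change of clustering or cell limit. The fall of Gria3 in CGNP-like, Node B-like and oligodendrocyte-lineage-like cells passed the test without any 1 tumor, with adjusted p of at most 0.0205, 0.0191 and 0.0202. Few UMIs limit Grik1, Grik3 and Gria1 outside astrocyte-like and Purkinje-like cells.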

Other observations

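WT cerebella also held clusters of GABAergic cells, a kind not found among the tumor clusters, with 469 GABAergic progenitor-like cells, with Ptf1a among their leading genes, and 615 GABAergic interneuron-like cells led by Pax2 and Gad1. Gria2 was at 142 CPM in the progenitor-like and 433 CPM in the interneuron-like cells, and Gria4 at 99.4 and 175 CPM. Gria3 was at 21.6 CPM in the progenitor-like cells, and at 126, 134, 142, 169 and 63.7 CPM in the interneuron-like cells of WT 1 to 5. Grik3, which was at 3.20 CPM or less at every stage of the WT granule neuron lineage, was at 5.11 CPM in the progenitor-like cells and at 45.2, 50.2, 0, 38.6 and 77.9 CPM in the interneuron-like cells. Grik2 was at 37.1 and 31.7 CPM, and Grik5 at 20.4 and 12.4 CPM. These levels come from clusters of the same cells and carry no test.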
